A study of Mus musculus with 24 samples.

Results

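The NOTCH receptors Notch1, Notch2 and Notch3, the ligands Jag1, Jag2, Dll1 and Dll3, and the effectors Hey1, Hey2 and Hes1 were followed through a mouse endoderm differentiation with and without degradation of OTX2. These 10 genes are rows of the deposited table picked by gene symbol, out of 18205 genes. PolyA RNA was sequenced from 24 libraries of OTX2-dTAG-EGFP cells of a BL6/129 hybrid genotype. The 8 groups cross 4 stages with 2 treatments and hold 3 libraries each, 1 from each of the cell lines 7H, 7H1 and 7H2. The control libraries carry the same tagged OTX2 and received DMSO vehicle, while the others received dTAG13, a small molecule that recruits a ubiquitin ligase to proteins carrying the tag. OTX2 is a homeodomain protein needed for head and anterior development.

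The starting stage (EPI) was epiblast stem cells in N2B27 medium holding 20 ng/ml activin A, 12.5 ng/ml FGF2 and 175 nM NVP. A switch to CDM medium holding 40 ng/ml activin A and 3 µM CHIR, which turns on WNT signalling, gave the primitive streak stage (PS) after 16 h. Further culture in 100 ng/ml activin A and 100 nM LDN, which blocks BMP receptors, gave definitive endoderm, harvested after 24 h as DE1 and after 48 h as DE2. Exposure to dTAG13 or DMSO lasted 21 h before harvest, which is longer than the 16 h of streak induction, and the labels do not say which addition belongs to which harvest. The relation between the 3 lines is not stated, and p-values therefore describe the spread between these lines only. The drug removes protein, so the Otx2 transcript is no check of depletion.

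In the NOTCH pathway, a receptor on one cell is bound by a Jagged or Delta-like ligand on its neighbour, is cut by ADAM proteases and gamma-secretase, and releases its intracellular part. That part enters the nucleus and joins the DNA-binding protein RBPJ and a Mastermind co-activator at target genes, among them the repressors of the HES and HEY families. Dll3 differs from the other ligands in that it does not activate receptors on neighbouring cells. In the gastrulating mouse embryo the pathway acts in the somite clock, in the node and in blood vessel formation.

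Library totals of normalised reads were 24.42 to 27.25 M, and between 15260 and 16536 genes were above 0 in a library. The summed streak markers were 3757 to 9436 in vehicle EPI libraries and 95515 to 100155 in PS. The summed endoderm markers were 1522 to 2736 in EPI, 15694 to 27410 in PS, 98505 to 121867 in DE1 and 73542 to 115938 in DE2, so that DE1 and DE2 overlapped. Streak markers summed to between 93133 and 101241 in vehicle DE1 and between 44135 and 67581 in DE2, with Lhx1 the highest member in both. From vehicle PS to DE1 the mean rose for Lhx1 (22615 to 58068), Gsc (5660 to 13963) and Fgf8 (5571 to 10090). Over the same step it fell for T (28106 to 728), Mixl1 (14611 to 2894), Eomes (13858.5 to 10420), Evx1 (3745 to 71.3) and Wnt3 (2935 to 391). All 10 NOTCH genes passed the filter of a value of at least 10 in at least 3 libraries, as did 15037 genes in all. Counting with or without regard to strand is not given, so reads of an antisense partner cannot be told apart from those of Notch1, Notch3, Dll1 and several pathway genes such as Rbpj, Notch4 and Dll4, which overlap annotated genes not analysed here. The RNA is from whole cultures, where fewer cells of a type and less RNA per cell cannot be told apart.

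RefSeq promoter windows of 300 bases on GRCm38.p6, from 250 bases before to 50 after a transcript start, matched 8 of the 10 genes and gave 9 windows. Hey1 and Hes1 were not among them. Shown are the windows of Notch1, Jag1 and Hey2, since the effect of dTAG13 on these genes differed between stages. Capitals mark matches on either strand to the RBPJ core TGGGAA, the OTX core TAATCC, the E-box CACGTG or the N-box CACNAG, motifs bound by HEY and HES proteins.
Notch1: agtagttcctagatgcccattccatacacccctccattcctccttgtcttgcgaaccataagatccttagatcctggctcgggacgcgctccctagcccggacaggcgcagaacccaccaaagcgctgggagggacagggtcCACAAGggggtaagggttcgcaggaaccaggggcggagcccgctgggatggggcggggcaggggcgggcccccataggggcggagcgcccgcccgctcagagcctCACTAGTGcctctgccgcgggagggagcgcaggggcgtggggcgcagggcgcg
Jag1: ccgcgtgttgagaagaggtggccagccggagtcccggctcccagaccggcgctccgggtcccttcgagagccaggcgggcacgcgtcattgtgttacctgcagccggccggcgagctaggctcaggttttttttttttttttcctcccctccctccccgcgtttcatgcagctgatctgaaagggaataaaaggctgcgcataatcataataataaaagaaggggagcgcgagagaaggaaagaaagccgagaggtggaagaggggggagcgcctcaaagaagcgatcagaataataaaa
Hey2: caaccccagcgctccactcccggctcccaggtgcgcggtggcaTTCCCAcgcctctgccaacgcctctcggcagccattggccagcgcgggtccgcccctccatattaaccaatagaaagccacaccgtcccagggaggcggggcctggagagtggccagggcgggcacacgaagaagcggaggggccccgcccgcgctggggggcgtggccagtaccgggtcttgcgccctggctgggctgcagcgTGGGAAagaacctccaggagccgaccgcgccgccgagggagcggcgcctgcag
The Notch1 window lies at chr2:26503773-26504072 on the minus strand, inside the annotated gene span. Its N-box matches begin at -108, -3 and -1 from the start, and the last 2 overlap each other. The Jag1 window at chr2:137116471-137116770, minus strand, held none of these letters. The Hey2 window at chr10:30842734-30843033, minus strand, held RBPJ core matches beginning at -207 and -3. Of 32851 mouse promoter windows of this length, 25.6% held the RBPJ core, 7.06% the OTX core, 7.15% the E-box and 42.5% the N-box. Among the 8 genes with a window, Hey2 alone held the RBPJ core, 4 held an N-box and none held the OTX core or the E-box. A match is a description of the letters and not a binding site.

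In vehicle cultures the 3 receptors followed different courses. Notch3 rose strongly at the entry to endoderm, Notch1 peaked in the streak and Notch2 varied least. Values are normalised read counts for lines 7H, 7H1 and 7H2 in that order, and tests are limma's moderated test on log2(value + 1) with Benjamini-Hochberg adjustment over all 15037 genes. Notch3 (chr17:32120820-32166852, GRCm38, minus strand) had 3865, 4205 and 4838 in EPI, 3281, 3538 and 2532 in PS, 16509, 16829.9 and 19323 in DE1 and 23018, 28906 and 25032 in DE2. No 2 stages overlapped, and the order was PS, EPI, DE1 and DE2 from low to high, a span of 8.23-fold between the means. The fall from EPI to PS was small (log2 fold change -0.47, SE 0.13, adjusted p = 0.00821), the rise from PS to DE1 large (log2 fold change 2.50, SE 0.13, adjusted p = 3.77e-12), and the level rose again into DE2 (log2 fold change 0.54, SE 0.13, adjusted p = 0.00171). Without single lines the first and last of these steps lost their call, with a log2 change of -0.24 and adjusted p = 0.307 without line 7H2 for the first and adjusted p = 0.0696 without line 7H1 for the last.

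Notch1 (chr2:26457903-26516663, minus strand) had 1074, 793 and 1008 in EPI, 1538, 2192 and 1603 in PS, 526, 300.1 and 341 in DE1 and 712, 677 and 842 in DE2. It was highest in PS and lowest in DE1, and only the DE2 and EPI libraries overlapped. It rose from EPI to PS (log2 fold change 0.88, SE 0.23, adjusted p = 0.00771), fell from PS to DE1 (log2 fold change -2.21, SE 0.23, adjusted p = 1.78e-07) and rose from DE1 to DE2 (log2 fold change 0.97, SE 0.23, adjusted p = 0.00233). The first step had adjusted p = 0.156 without line 7H1 and 0.067 without line 7H2, and the last had adjusted p = 0.0742 without line 7H2. Notch2 (chr3:98013527-98150361, plus strand) had 1671, 1888 and 1918 in EPI, 2410.5, 2209.7 and 1579 in PS, 1855, 1683 and 2134 in DE1 and 2833, 2595 and 2857 in DE2. Its DE2 libraries lay above those of the other stages, while EPI and DE1, and DE1 and PS, overlapped. It rose from DE1 to DE2 by 0.55 (SE 0.13, adjusted p = 0.00208) on the log2 scale.

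Levels per kilobase of annotated exon allow only a rough comparison of different genes. The length used joins all annotated exons of a gene, 14.232 kb for Notch1 and 8.089 kb for Notch3, whichever transcripts the cells made. On this scale Notch3 was the highest receptor at each vehicle stage. Its mean level per kilobase was 532 in EPI, 385 in PS, 2170.1 in DE1 and 3171 in DE2. Its share of the 3 receptors was 69.1 ± 1.59% (SD, n = 3) in EPI, 54.9 ± 0.152% in PS, 91.5 ± 0.721% in DE1 and 91.1 ± 1.3% in DE2. Notch1 made up 17.9 ± 2.81% of the receptors in PS and 1.16 ± 0.413% in DE1.

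**Figure D1:**
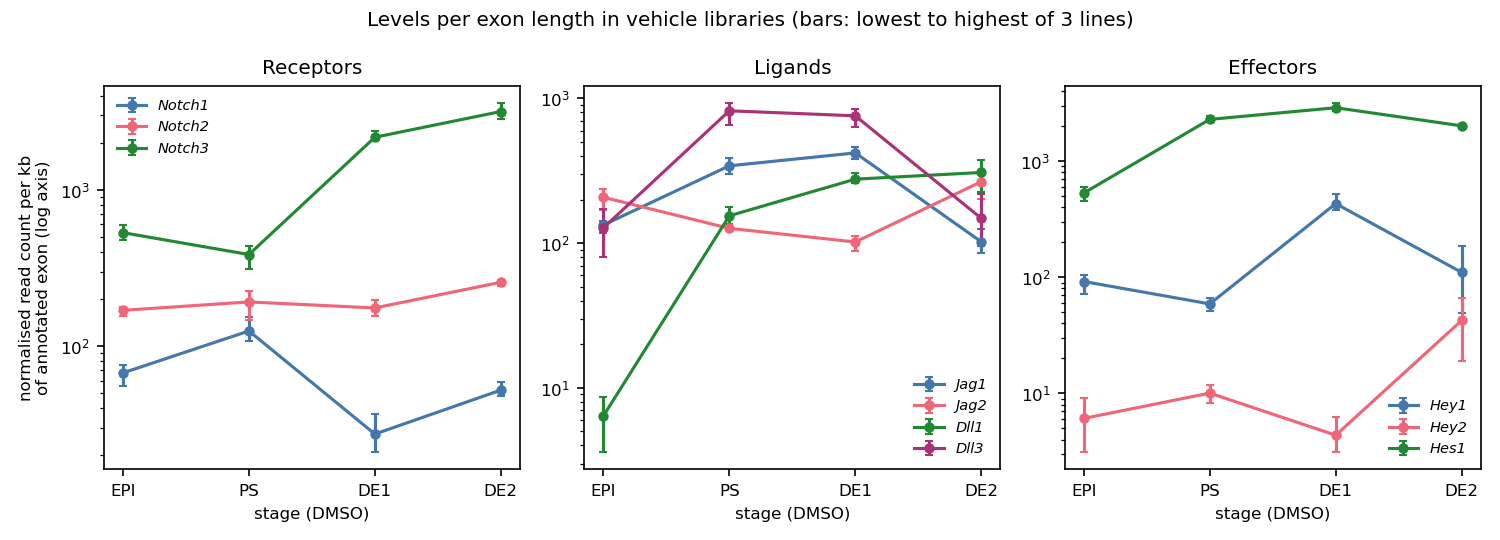
Levels of the 10 NOTCH genes in DMSO libraries, as normalised read count per kilobase of annotated exon on a log axis, over the 4 stages, with receptors, ligands and effectors in separate panels. Points are means of 3 lines and bars run from the lowest to the highest line; Notch3 leads the receptors and Hes1 the effectors at each stage, while the highest ligand changes from Jag2 in EPI to Dll3 in PS and DE1 and Dll1 in DE2.

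The 4 ligands changed places in vehicle cultures. Jag2 led per kilobase in EPI, Dll3 in PS and DE1, and Dll1 in DE2, although Dll1 and Jag2 were close there. Dll1 (chr17:15367354-15376872, minus strand), a ligand of paraxial mesoderm and the somite clock, had 36.5, 29.2 and 15.3 in EPI, 746, 574 and 635 in PS, 1129, 1094 and 1279 in DE1 and 1592, 1346 and 957 in DE2. EPI lay below all other stages and DE1 and DE2 overlapped. It rose from EPI to PS (log2 fold change 4.62, SE 0.31, adjusted p = 1.43e-09) and from PS to DE1 (log2 fold change 0.85, SE 0.31, adjusted p = 0.0298), and the second of these had adjusted p = 0.0565 after quantile normalisation, 0.0503 without line 7H and 0.192 without line 7H1. Dll3 (chr7:28293553-28302238, minus strand) had 229, 490.1 and 371 in EPI, 1858, 2529 and 2632 in PS, 1801, 2260.4 and 2421 in DE1 and 371, 626 and 272 in DE2. Its PS and DE1 libraries overlapped each other and lay above EPI and DE2, which also overlapped. It rose by 2.73 (SE 0.35, adjusted p = 1.14e-05) into PS and changed by -2.43 (SE 0.35, adjusted p = 2.04e-05) from DE1 to DE2, both on the log2 scale.

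Jag1 (chr2:137081456-137116644, minus strand), a ligand of vascular and epithelial tissues, had 685, 826 and 821 in EPI, 1753, 2255 and 1973 in PS, 2458, 2214 and 2672 in DE1 and 731, 499 and 557 in DE2. PS and DE1 overlapped at the top and DE2 and EPI at the bottom. It rose into PS (log2 fold change 1.36, SE 0.18, adjusted p = 1.1e-05) and fell from DE1 to DE2 (log2 fold change -2.05, SE 0.18, adjusted p = 2.61e-08). Jag2 (chr12:112907819-112929776, minus strand) had 1503, 1189 and 1641 in EPI, 898, 855 and 891 in PS, 732, 616 and 779.9 in DE1 and 1414, 2113 and 2026 in DE2. It was low in the middle stages, and its EPI and DE2 libraries overlapped. It fell into PS (log2 fold change -0.70, SE 0.20, adjusted p = 0.0138; adjusted p = 0.175 without line 7H2) and rose from DE1 to DE2 (log2 fold change 1.37, SE 0.20, adjusted p = 2.13e-05). Mean levels per kilobase in DE2 were 308 for Dll1, 266 for Jag2, 148 for Dll3 and 102 for Jag1.

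Among the effectors, all of them basic helix-loop-helix repressors, Hes1 was the highest per kilobase at every vehicle stage, Hey1 was high in DE1 alone and Hey2 appeared mainly in DE2. Hes1 (chr16:30064384-30067796, plus strand) had 1119, 1208 and 917 in EPI, 4516, 4996 and 4459 in PS, 5506, 6392 and 5711 in DE1 and 4179.5, 4288 and 3822 in DE2. No 2 stages overlapped. It rose into PS (log2 fold change 2.11, SE 0.11, adjusted p = 6.34e-11), rose slightly into DE1 (log2 fold change 0.33, SE 0.11, adjusted p = 0.0215; adjusted p = 0.0894 without line 7H, 0.0604 without line 7H1 and 0.101 without line 7H2) and fell into DE2 (log2 fold change -0.52, SE 0.11, adjusted p = 0.00109).

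Hey1 (chr3:8663359-8667256, minus strand), a repressor of the heart and vessel wall, had 324, 236 and 339.8 in EPI, 214, 167 and 195 in PS, 1717, 1246 and 1253 in DE1 and 315, 601 and 161 in DE2. The DE1 libraries lay above all others, and EPI and DE2 overlapped. It rose from PS to DE1 (log2 fold change 2.85, SE 0.33, adjusted p = 6.3e-07) and fell from DE1 to DE2 (log2 fold change -2.15, SE 0.33, adjusted p = 3.21e-05). Hey2 (chr10:30832359-30842801, minus strand), the related repressor of arteries and heart ventricles, had 27.6, 14.5 and 41.8 in EPI, 46.1, 54.6 and 37.8 in PS, 16.9, 14.5 and 28.7 in DE1 and 88, 306 and 191 in DE2. Only the DE2 libraries stood above the rest, with a spread of several fold between lines. The rise from DE1 to DE2 passed the test (log2 fold change 3.10, SE 0.62, adjusted p = 0.000462).

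Counted over the 10 genes, 5 rose and 2 fell from EPI to PS, where 27.5% of all tested genes were called, 14.6% as higher and 12.8% as lower. That split of all genes, 2200 higher and 1932 lower, turned with equal library totals, to 1693 and 2360, and from DE1 to DE2 with quantile normalisation, from 3039 and 2875 to 2638 and 3452. From PS to DE1, 4 rose and 1 fell beside 44.1% of all genes, 21.7% higher and 22.4% lower. From DE1 to DE2, 5 rose and 4 fell beside 39.3%, 20.2% higher and 19.1% lower, and Dll1 was not called. The median log2 change of the 10 was 0.84, 0.10 and 0.34 over the 3 steps, beside all-gene medians of -0.01, -0.01 and 0.02. Without single lines the 3 counts ranged from 4 to 7, 3 to 5 and 8 to 9.

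**Figure D2:**
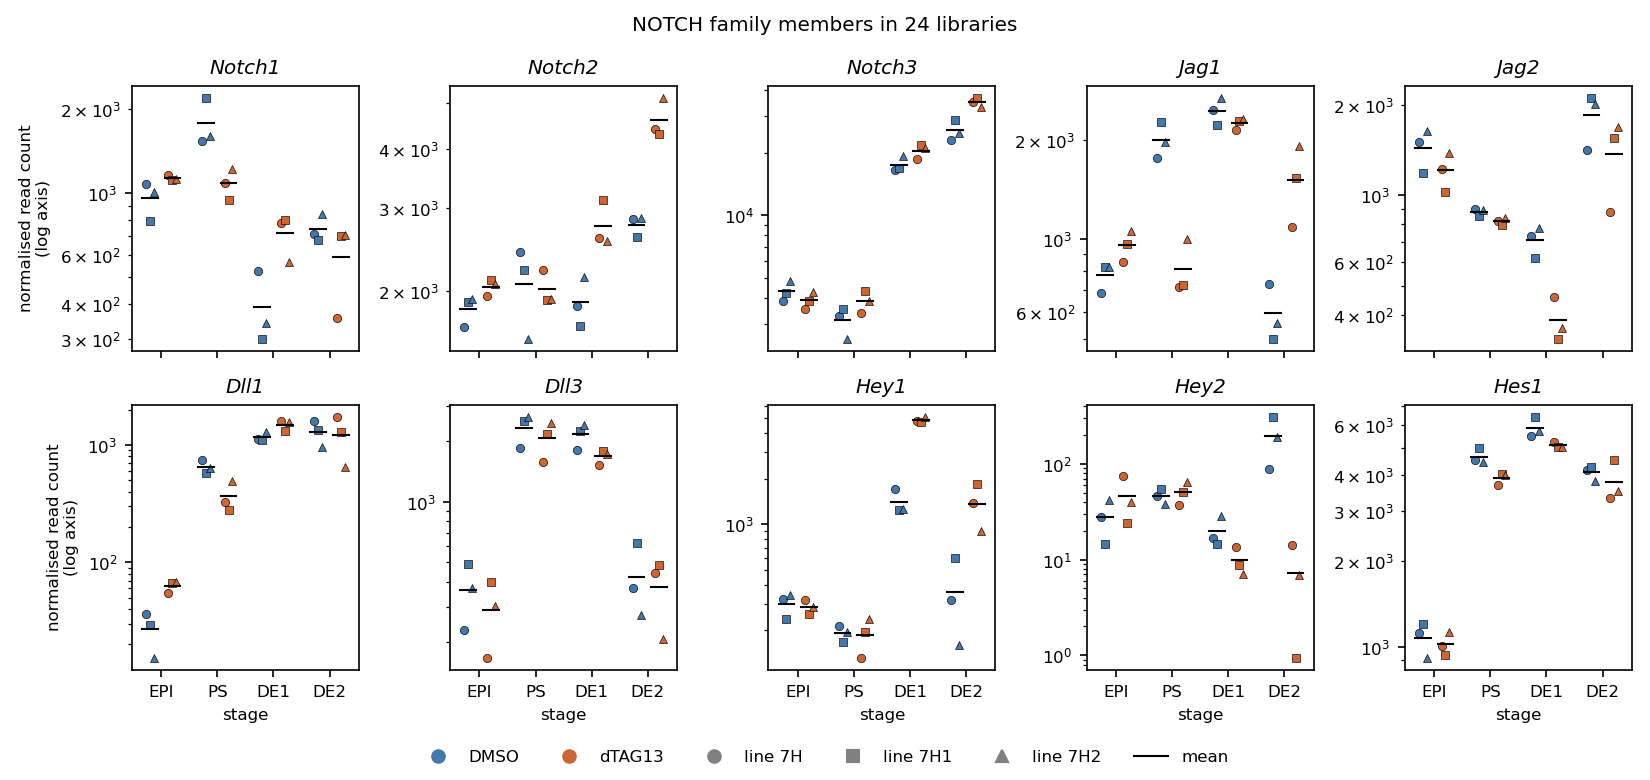
Normalised read count of each of the 10 NOTCH genes in all 24 libraries, on log axes, by stage and treatment; marker shapes give the cell line and short lines the mean of 3 libraries. Hey1 separates by treatment, with a call by limma, in DE1 and DE2, Jag1 in PS and DE2, and Hey2 in DE2. In DE2 the 3 dTAG13 libraries of Hey2 lie at 14 or below and the vehicle libraries between 88 and 306. Jag1 in EPI and Hey2 in DE1 also do not overlap between treatments but were not called.

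In total, calls among the wider pathway lay near the share of all genes, although from DE1 to DE2 more pathway genes rose than fell. Of 83 other NOTCH pathway genes listed, 80 were in the table and 78 were tested. From EPI to PS 16 rose and 11 fell, from PS to DE1 20 rose and 17 fell, and from DE1 to DE2 27 rose and 9 fell. This is 34.6%, 47.4% and 46.2% of those tested, beside 27.5%, 44.1% and 39.3% of all genes. All genes were split into 14.6% higher and 12.8% lower, 21.7% and 22.4%, and 20.2% and 19.1% over the same steps. Rbpj, the DNA-binding core of the pathway, had 2852, 2661 and 2278 in PS, 4098, 3637 and 3769 in DE1 and 7870.2, 10157 and 8094 in DE2. It rose at both steps, by 0.57 (SE 0.11, adjusted p = 0.000401) and then 1.18 (SE 0.11, adjusted p = 1.24e-07) on the log2 scale. The stages did not overlap at either step. Nrarp, a feedback inhibitor that binds the NOTCH complex, had 676, 719.9 and 864 in PS, 1547, 1492 and 1416 in DE1 and 519.8, 437 and 329 in DE2. It rose into DE1 by 0.99 (SE 0.20, adjusted p = 0.000494) and changed by -1.81 (SE 0.20, adjusted p = 7.71e-07) into DE2.

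Receptor-modifying fringe enzymes changed in opposite directions at the entry to endoderm. Mfng had 24.2, 47.7 and 29.6 in PS and 464, 468 and 515 in DE1, a rise of 3.85 (SE 0.39, adjusted p = 1.03e-07) on the log2 scale, while Lfng had 116, 159.5 and 221 and 32.7, 39.3 and 31.2, a change of -2.19 (SE 0.40, adjusted p = 0.000141). Lfng rose again into DE2 with 130.4, 88.3 and 193 (log2 fold change 1.90, SE 0.40, adjusted p = 0.000731; adjusted p = 0.0572 without line 7H2). Dll4, the endothelial Delta-like ligand, went from 2.11, 0.925 and 0 in PS to 13.3, 63.2 and 39 in DE1, a low level in all 3 lines (log2 fold change 4.20, SE 0.69, adjusted p = 4.64e-05). Mesp2, a somite segmentation factor downstream of NOTCH, had 1.91, 0 and 0.991 in EPI and 193, 236 and 264 in PS. The groups did not overlap (adjusted p = 9.16e-08), and the fold rests on an EPI level near 0.

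With dTAG13, 4 of the 10 NOTCH genes were called in DE1 and 5 in DE2, against 1 in PS and 0 in EPI. In DE1 and DE2 Hey1 and Notch2 were higher with dTAG13. Hey2 was lower in DE2, and Jag1 was lower in PS but higher in DE2. None of the 10 was called in EPI by limma, 1 had an unadjusted p under 0.05, and 0.0865% of all genes were called there and 534 had an unadjusted p under 0.05. In PS 1 fell, beside 0.219% of all genes called and 0.133% called lower. In DE1 3 rose and 1 fell, beside 7.76% of all genes, 3.74% higher and 4.02% lower. This split of 562 and 605 genes also turned with equal library totals, to 733 and 490. In DE2 4 rose and 1 fell, beside 17.0%, 8.65% higher and 8.31% lower. The median log2 change of the 10 was 0.05, -0.15, 0.05 and -0.15 over the 4 stages, beside -0.01 in EPI and 0.00 at the other stages for all genes. The numbers of genes whose groups did not overlap were 4, 5, 8 and 5, where 8.24%, 12.6%, 33.1% and 31.7% of all genes did not. Leaving out single lines, the counts ranged from 0 to 1 in PS and 1 to 3 in DE1, and were 4 each time in DE2.

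**Figure D3:**
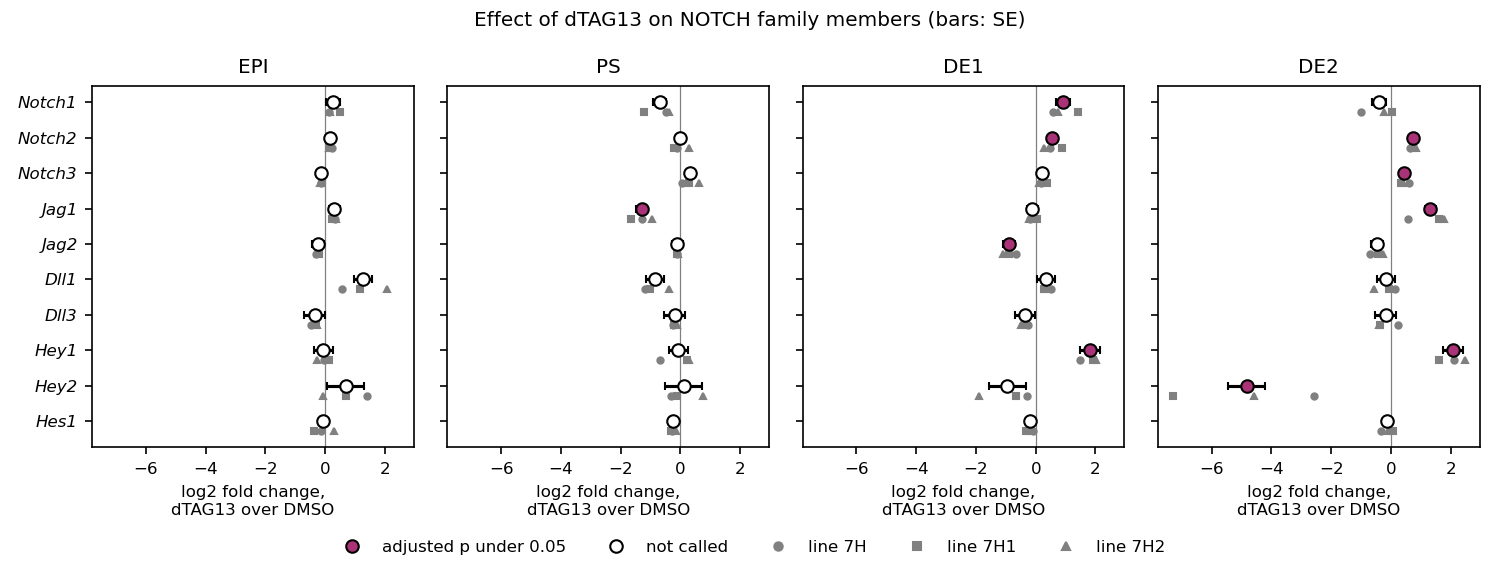
Log2 fold change of dTAG13 over DMSO for the 10 NOTCH genes at each stage, with the standard error as a bar and the difference within each line as a small marker; filled circles have an adjusted p under 0.05. No gene is filled in EPI, Jag1 alone in PS, 4 genes in DE1 and 5 in DE2, where Hey1 (2.07) and Hey2 (-4.83) lie on opposite sides of 0.

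Among the receptors, Notch2 was called higher with dTAG13 in DE1 and DE2, Notch1 in DE1 and Notch3 in DE2. Notch2 had 1855, 1683 and 2134 with DMSO and 2584, 3117 and 2548 with dTAG13 in DE1, and 2833, 2595 and 2857 and 4418, 4307 and 5134 in DE2. The treated libraries lay above the vehicle libraries at both stages, and both differences passed the test (log2 fold change 0.54, SE 0.13, adjusted p = 0.0114 in DE1; log2 fold change 0.74, SE 0.13, adjusted p = 0.000378 in DE2). The DE1 call had adjusted p = 0.0731 without line 7H and 0.369 without line 7H1. Notch3 had 23018, 28906 and 25032 with DMSO and 35002, 36770.5 and 33281 with dTAG13 in DE2, with no overlap (log2 fold change 0.45, SE 0.13, adjusted p = 0.0156). This modest rise lost its call whichever single line was left out, with adjusted p = 0.128 without line 7H, 0.0852 without line 7H1 and 0.0521 without line 7H2. In DE1 Notch3 had 18712, 21751 and 20992 with dTAG13, a difference of 0.22 (SE 0.13, adjusted p = 0.355) on the log2 scale that was not called.

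Notch1 differed from its controls in opposite directions in PS and DE1. In PS it had 1538, 2192 and 1603 with DMSO and 1091, 947 and 1219 with dTAG13, lower in all 3 lines but not called (log2 fold change -0.70, SE 0.23, adjusted p = 0.368). In DE1 it had 526, 300.1 and 341 and 781, 803 and 568, higher in every treated library and called (log2 fold change 0.91, SE 0.23, adjusted p = 0.0172; adjusted p = 0.3 without line 7H1 and 0.137 without line 7H2). In DE2 the values were 712, 677 and 842 and 357, 699 and 707, where the groups overlapped and the difference was -0.40 (SE 0.23, adjusted p = 0.276). The dTAG13 effect was larger in DE1 than in PS by 1.61 (SE 0.33, adjusted p = 0.00866) and smaller in DE2 than in DE1, a difference of -1.31 (SE 0.33, adjusted p = 0.0206). Both calls were lost under some alternatives, with adjusted p = 0.398 without line 7H1 and 0.107 without line 7H2 for the first and adjusted p = 0.0599 in a fit of the compared groups alone, 0.0619 without line 7H, 0.157 without line 7H1 and 0.121 without line 7H2 for the second. Notch3 kept its place among the receptors, at 89.2 ± 0.994% of their summed level per kilobase in treated DE1 and 90.2 ± 1.32% in treated DE2.

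Of the ligands, Jag1 was called at 2 stages, with opposite signs. In PS it had 1753, 2255 and 1973 with DMSO and 716, 724 and 1004 with dTAG13, so that treated PS cells were near the EPI level of 685, 826 and 821. The groups did not overlap and the fall was called (log2 fold change -1.30, SE 0.18, adjusted p = 0.000661; adjusted p = 0.0624 in a fit of the compared groups alone and 0.281 without line 7H1). Jag1 in DE1 overlapped between treatments, at 2458, 2214 and 2672 with DMSO and 2145, 2281 and 2316 with dTAG13, with a difference of -0.12 (SE 0.18, adjusted p = 0.802). In DE2 Jag1 had 731, 499 and 557 with DMSO and 1090.1, 1534 and 1909 with dTAG13, a rise in all 3 lines without overlap (log2 fold change 1.32, SE 0.18, adjusted p = 1.63e-05). Its share of the 4 ligands per kilobase was 23.7 ± 1.64% with DMSO and 13.1 ± 1.29% with dTAG13 in PS, and 12.6 ± 2.99% and 29.9 ± 10.1% in DE2.

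The dTAG13 effect on Jag1 differed at each successive pair of stages. From EPI to PS the difference of effects was -1.60 (SE 0.25, adjusted p = 0.0371), from PS to DE1 1.18 (SE 0.25, adjusted p = 0.0114) and from DE1 to DE2 1.44 (SE 0.25, adjusted p = 0.00158) on the log2 scale. These 3 comparisons share stages. The first had adjusted p = 0.0587 after quantile normalisation, 0.134 in a fit of the compared groups alone, 0.0625 without line 7H, 0.733 without line 7H1 and 0.207 without line 7H2, the second adjusted p = 0.426 without line 7H1 and 0.0648 without line 7H2 and the third adjusted p = 0.0799 without line 7H1 and 0.0681 without line 7H2.

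Jag2 was lower with dTAG13 in DE1, with 732, 616 and 779.9 under DMSO and 459, 332 and 360.0 under dTAG13 and no overlap (log2 fold change -0.89, SE 0.20, adjusted p = 0.00707; adjusted p = 0.0835 without line 7H1 and 0.182 without line 7H2). In DE2 it had 1414, 2113 and 2026 and 878, 1559.6 and 1691, lower within each line although the groups overlapped. This DE2 difference was -0.46 (SE 0.20, adjusted p = 0.131), and with the line as a block it was called (adjusted p = 0.00353). Dll1 in EPI had 36.5, 29.2 and 15.3 with DMSO and 54.4, 66.6 and 67.3 with dTAG13, a low level that was higher in all 3 treated libraries. The difference was 1.27 (SE 0.31, adjusted p = 0.227), and it was called with the line as a block (adjusted p = 0.0282), where 0.572% of all genes were called. In PS Dll1 had 746, 574 and 635 and 326, 281 and 489.9 without overlap, a difference of -0.86 (SE 0.31, adjusted p = 0.431) that was not called in either fit.

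With the line as a block, the dTAG13 effect on Dll1 also differed between stages. The difference was -2.13 from EPI to PS (adjusted p = 0.0228 with the block and 0.14 without) and 1.22 from PS to DE1 (0.0434 and 0.194). For Jag2 the difference from PS to DE1 was -0.79 (adjusted p = 0.00395 with the block and 0.208 without). Dll3 was not called at any stage. Its treated PS libraries held 1575, 2169 and 2455 and overlapped the vehicle ones, and its treated DE1 libraries held 1516, 1790.2 and 1731, just below them (log2 fold change -0.36, SE 0.35, adjusted p = 0.666).

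The effectors held the largest changes, and they went in opposite directions. Hey1 in DE1 had 1717, 1246 and 1253 with DMSO and 4775, 4746 and 5072 with dTAG13, and in DE2 315, 601 and 161 and 1371, 1829 and 906. Every treated library lay above every vehicle library at both stages. The rise was 1.81 (SE 0.33, adjusted p = 0.00114) in DE1 and 2.07 (SE 0.33, adjusted p = 0.000124) in DE2 on the log2 scale, and neither lost its call under any alternative run. In EPI and PS the treated values were 315, 256 and 284 and 131, 195 and 236, which overlapped those of DMSO. The effect was larger in DE1 than in PS by 1.88 (SE 0.46, adjusted p = 0.0342), a difference with adjusted p = 0.352 without line 7H, 0.105 without line 7H1 and 0.0813 without line 7H2. From DE1 to DE2 the effect differed by 0.26 (SE 0.46, adjusted p = 0.829), which was not called. Hey1 made up 13 ± 2.86% of the 3 effectors per kilobase in vehicle DE1 and 37.3 ± 1.18% in treated DE1, and 4.93 ± 2.69% and 18.1 ± 3.76% in DE2.

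Hey2 in DE2 had 88, 306 and 191 with DMSO and 14, 0.936 and 6.92 with dTAG13, with all treated libraries below all vehicle ones. The change was -4.83 (SE 0.62, adjusted p = 9.52e-06) on the log2(value + 1) scale, which understates changes at low values, and it was called under every alternative run. In DE1 Hey2 had 16.9, 14.5 and 28.7 and 13.6, 8.74 and 7.04, low in both groups, with a difference of -0.95 (SE 0.62, adjusted p = 0.448). The effect differed between DE1 and DE2 by -3.88 (SE 0.88, adjusted p = 0.0101), with adjusted p = 0.18 without line 7H1 and 0.104 without line 7H2. Without line 7H1 the difference was -2.49. Hes1 was not called at any stage. With dTAG13 it had 3689, 4034 and 4006 in PS against 4516, 4996 and 4459 with DMSO, below in all 3 lines, a difference of -0.25 (SE 0.11, adjusted p = 0.582). In DE2 Hes1 had 3323, 4519.8 and 3531, overlapping the vehicle libraries.

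Several differences without overlap between treatments did not pass the test. In EPI the treated libraries lay above the vehicle ones for Notch1, Notch2, Jag1 and Dll1, with 1164, 1112 and 1124 for treated Notch1, 1944, 2104 and 2064 for Notch2 and 853, 969 and 1055 for Jag1. Their log2 differences were 0.25 (SE 0.23, adjusted p = 1) for Notch1, 0.16 (SE 0.13, adjusted p = 1) for Notch2 and 0.30 (SE 0.18, adjusted p = 1) for Jag1. In DE1 Dll1 was 1593, 1312 and 1570.1 with dTAG13, above its vehicle libraries (log2 fold change 0.35, SE 0.31, adjusted p = 0.608), and Hes1 was 5215, 5036 and 5027, below them (log2 fold change -0.20, SE 0.11, adjusted p = 0.353). In PS Jag2 was 819, 798 and 843 with dTAG13, close under the vehicle values (log2 fold change -0.10, SE 0.20, adjusted p = 0.946). Treated Notch2 in PS, at 2208, 1906 and 1919, and treated Dll1 in DE2, at 1726, 1291 and 647, lay within the range of their vehicle libraries or overlapped it.

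Counted over the 10 genes, the dTAG13 effect differed in 1 gene from EPI to PS, where 0.0133% of all genes differed, in 3 from PS to DE1 beside 2.14%, and in 3 from DE1 to DE2 beside 5.95%. With the line as a block these counts were 2, 5 and 3, beside 0.259%, 6.34% and 15.0% of all genes. The order of stages for Hey2 with dTAG13 was DE2, DE1, EPI and PS from low to high, against DE1, EPI, PS and DE2 with DMSO. For Notch1 it was DE2, DE1, PS and EPI against DE1, DE2, EPI and PS.

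The rest of the pathway moved in both directions with dTAG13. In EPI and PS none of the 78 tested genes was called by limma; 3 in EPI and 12 in PS had an unadjusted p under 0.05, and with the line as a block 0 and 4 were called. In DE1 6 rose and 7 fell, 16.7% of those tested beside 7.76% of all genes, and in DE2 7 rose and 10 fell, 21.8% beside 17.0%. With the block these were 11 and 9 in DE1 and 11 and 18 in DE2, where the block called 15.8% and 27.5% of all genes and 2.41% in PS. Without single lines the totals were 5 to 7 in DE1 and 10 to 11 in DE2. The median log2 changes were -0.04 and -0.12, beside 0.00 for all genes at both stages.

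**Figure D4:**
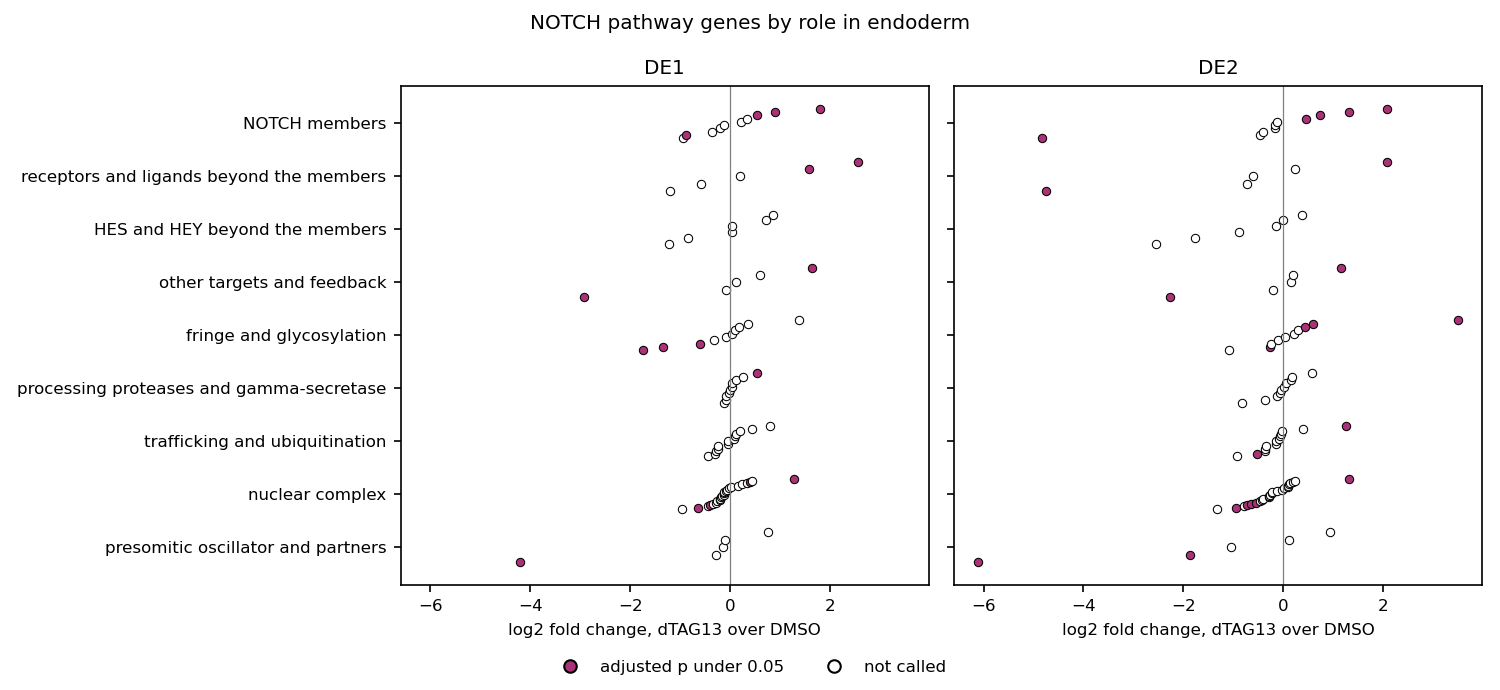
Log2 fold change of dTAG13 over DMSO in DE1 and DE2 for the 10 NOTCH genes, in the top row, and for 78 other NOTCH pathway genes, grouped by role below. Genes of adjusted p under 0.05 are filled. Among the 78, filled points lie on both sides of 0, 6 above and 7 below in DE1 and 7 above and 10 below in DE2. No role has filled points for most of its genes.

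Rbpj itself changed in opposite directions. It had 4098, 3637 and 3769 with DMSO and 5510.0, 5002 and 4823 with dTAG13 in DE1, and 7870.2, 10157 and 8094 and 4755, 6176 and 4846 in DE2. The groups did not overlap at either stage. The change was 0.41 (SE 0.11, adjusted p = 0.0267) in DE1, with adjusted p = 0.141 without line 7H, 0.168 without line 7H1 and 0.15 without line 7H2, and -0.73 (SE 0.11, adjusted p = 0.000105) in DE2, and the 2 effects differed by -1.14 (SE 0.16, adjusted p = 0.000212). In the nuclear complex, 2 of 24 tested genes rose and 2 fell in DE1, and 1 rose and 4 fell in DE2. These calls were 16.7% and 20.8% of the genes tested there, beside 7.76% and 17.0% of all genes. The co-repressor Tle4 had 2539, 2339 and 2899 with DMSO and 1264, 1198 and 1569.9 with dTAG13 in DE2 (log2 fold change -0.95, SE 0.12, adjusted p = 4.75e-06), and 1725, 1741 and 1787 and 1102, 1126 and 1134 in DE1 (log2 fold change -0.64, SE 0.12, adjusted p = 0.000981). Maml3, a Mastermind co-activator, fell by 0.55 on the log2 scale in DE2 (SE 0.15, adjusted p = 0.0156; adjusted p = 0.102 without line 7H and 0.248 without line 7H1).

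Notch4 and Dll4 rose from low levels, and the distant ligand Dlk1 fell. Notch4 in DE1 had 62.9, 77.5 and 146 with DMSO and 378, 199 and 264 with dTAG13 (log2 fold change 1.59, SE 0.48, adjusted p = 0.0428), and Dll4 had 13.3, 63.2 and 39 and 127, 232 and 249 (log2 fold change 2.56, SE 0.69, adjusted p = 0.0229). Their groups did not overlap. Notch4 had adjusted p = 0.0638 after quantile normalisation, 0.282 without line 7H, 0.135 without line 7H1 and 0.116 without line 7H2, and Dll4 had adjusted p = 0.147 without line 7H, 0.0921 without line 7H1 and 0.178 without line 7H2. In DE2 Dll4 had 7.73, 31.7 and 13.5 and 85.3, 51.4 and 68.2 (log2 fold change 2.08, SE 0.69, adjusted p = 0.042; adjusted p = 0.0545 in a fit of the compared groups alone, 0.285 without line 7H, 0.0732 without line 7H1 and 0.175 without line 7H2). Dlk1, which lacks the receptor-binding domain of the Delta family, had 142, 268 and 277 with DMSO and 7.26, 4.39 and 11.4 with dTAG13 in DE2 (log2 fold change -4.75, SE 0.39, adjusted p = 3.07e-08).

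Among fringe and glycosylation enzymes, 3 of 10 fell in DE1 and none rose, and 3 rose and 1 fell in DE2. That is 30.0% and 40.0% of the 10, beside 7.76% and 17.0% of all genes. With the line as a block 2 rose and 3 fell in DE1, and 4 rose and 2 fell in DE2. The block called 15.8% and 27.5% of all genes at these stages. Lfng in DE1 had 32.7, 39.3 and 31.2 with DMSO and 15.4, 4.86 and 11.1 with dTAG13 (log2 fold change -1.74, SE 0.40, adjusted p = 0.0074; adjusted p = 0.13 without line 7H1 and 0.112 without line 7H2). Xxylt1, which extends the sugar on the receptors, had 1736, 1812 and 1813 and 1165, 1328 and 1067 in DE1 (log2 fold change -0.60, SE 0.09, adjusted p = 0.000202). Of the other targets, the growth regulator Myc had 1602, 1881 and 1995 with DMSO and 264, 244 and 206 with dTAG13 in DE1 (log2 fold change -2.93, SE 0.22, adjusted p = 1.04e-08) and fell in DE2 too (log2 fold change -2.27, SE 0.22, adjusted p = 2.16e-07). Nrarp had 1731, 1755 and 1388 in treated DE1 and 603, 514 and 358 in treated DE2. Its differences of 0.12 (SE 0.20, adjusted p = 0.825) and 0.19 (SE 0.20, adjusted p = 0.6) were not called. In PS limma called Nrarp lower only with the line as a block (log2 fold change -0.5, adjusted p = 0.0124). Its differences of effect from EPI to PS (-0.72, adjusted p = 0.0365) and PS to DE1 (0.62, adjusted p = 0.0118) were also called only with the block. Ripply1, a gene of somite boundary formation, had 56.5, 73.5 and 31.2 with DMSO and 2.76, 2 and 0.99 with dTAG13 in DE1 (log2 fold change -4.20, SE 0.63, adjusted p = 0.000131). In DE2 it had 56.2, 97.7 and 57.3 with DMSO and was listed at 0 in all 3 treated libraries.

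Markers of other cell types and of the stages themselves moved in the same libraries. The summed level of 7 endothelial markers in the table was 249 to 337 in vehicle DE1 and 651 to 781 in treated DE1, where 2 of 6 tested rose, Kdr by 2.52 and Tek by 2.16 on the log2 scale. Kdr made most of that sum, with means of 92.4 and 529, while Tek had means of only 2.15 and 11.7, Egfl7 158 and 129, Pecam1 13.3 and 12, and Emcn a mean under 10. In DE2 the endothelial sums were 165 to 273 with DMSO and 140 to 263 with dTAG13, and none of the 6 was called by limma. The part of endothelial cells in the differences of the NOTCH genes was not tested.

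The summed level of 8 neural markers was 556 to 867 in vehicle and 1232 to 1619 in treated DE1, where Tubb3 alone of 6 tested rose, and Pax6, Neurog2, Hes5 and Neurod1 had means under 10 in both groups. In DE2 Sox1 rose by 3.21 and Neurod1 fell by 2.86 on the log2 scale. The summed markers of paraxial and nascent mesoderm were 1835 to 3905 in vehicle PS and 756 to 1658 in treated PS, with none of 9 called by limma. Mesp1 made most of that sum, with means of 2023 and 661, whereas Msgn1 went the other way, from 41.6 to 69.3 with DMSO to between 129 and 185 with dTAG13. Jag1 was lower in the same PS libraries, and the part of mesoderm cells in its level was not tested.

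The summed level of 8 epiblast markers was 58685 to 60725 in vehicle DE1 and 32475 to 35021 in treated DE1, where Fgf5 and Dnmt3b fell. Dnmt3b (vehicle and treated means 33666 and 17882) and Fgf5 (17513 and 10128) made most of that sum. Means were also lower for Tdgf1 (5752 and 2851), Sox3 (548 and 370) and Pou5f1 (1139 and 1030). Means were higher for Nanog (286 and 567), Sox2 (122 and 403) and Utf1 (471 and 563), and none of these others was called in DE1. In DE2 Fgf5 and Tdgf1 fell and Sox3 rose. Vehicle DE2 libraries were uneven, at 749 to 5796 for Pou5f1, 183 to 1264 for Sox2 and 469 to 2572 for Utf1. Treated DE2 libraries held 367 to 1874, 117 to 952 and 625 to 816 of these. Vehicle DE2 spread less for Fgf5 (14317 to 19409) and Dnmt3b (19523 to 23349). Of 8 streak markers, Gsc was called lower in EPI (vehicle and treated means 205 and 57.5) and Lhx1 in PS (22615 and 6959). In DE1 Wnt3 alone was called, and it rose by 1.11 on the log2 scale. Streak sums were 93133 to 101241 in vehicle DE1 and 73813.5 to 77485 in treated DE1. Means there were lower for Lhx1 (58068 and 33582) and Gsc (13963 and 7007), and higher for the other streak markers. In DE2 Mixl1 rose by 2.34 and Wnt3 by 1.55, while Gsc fell by 2.85 and Lhx1 fell by 1.55. None of 8 endoderm markers was called higher with dTAG13. Called lower were 3 in EPI, 2 in PS, 1 in DE1 and 4 in DE2. The last were Sox17, Cxcr4, Gata6 and Gata4. Of all genes, 0.0865%, 0.219%, 7.76% and 17.0% were called there. Means in DE1 were higher for Foxa2 (vehicle and treated 4338 and 7908) and Gata4 (3208 and 3869), and lower for the others. Means in DE2 were higher for Foxa1 (1413 and 2231), Foxa2 (3006 and 3524) and Cer1 (57825 and 65695), and lower for Hhex. Endoderm sums were 71887 to 98072 in treated DE1, below vehicle, and 77970 to 99845 in treated DE2, overlapping vehicle. The part of these markers' cells in the NOTCH differences was not tested.

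Patterns over the 8 group means were compared with those of 11345 other genes by the root mean square difference of centred log2 means. Nearest to Hey1 were Pde1c (0.33), Vwa5b1 (0.52) and F5 (0.55), and among the nearest to Hey2 were Prr18 (0.46) and the pathway gene Dlk1 (0.48). Nearest to Jag1 were Mrm1 (0.30), Hebp1 (0.39) and Sptssa (0.40). For Notch1 they were Hdac8 (0.27), Traf3ip1 (0.28) and Cdan1 (0.31), and for Notch3 Chst11 (0.19), Rhou (0.20) and Tnks (0.21). For Jag2 they were Mcam (0.18), Susd1 (0.20) and Fam84a (0.21), for Dll1 Ttc6 (0.61), Slc35g2 (0.68) and Hand1 (0.70), and for Dll3 Bmp7 (0.34), St3gal6 (0.36) and Aldh2 (0.50). For Hes1 they were Meis3 (0.21), Mycl (0.22) and Slc25a47 (0.22). Dll1 had no gene closer than 0.61 and was the least matched of the 9 compared. Notch2 spans 1.34 between its group means on the log2 scale and was not compared.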

How the data were processed

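PolyA RNA from 24 mouse libraries was analysed from 1 table of the whole series. The values are a signal made and deposited by the authors, normalised read counts per gene, and the submitters' processing notes name mm10 and DESeq2 with no version or role. No aligner, counting tool or strand setting is stated in the labels or notes. Of values under 6, between 58.5% and 71.9% lay within 0.1 of whole reads, so whole reads were not recovered and no count model was run; the estimated depth was 17.2 to 33.8 M reads.

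Tests were run with limma 3.58.1 under R 4.3.3 and statmod 1.5.0, with trend and robust settings, on log2(value + 1), on all 24 libraries and 8 group means with 16 residual degrees of freedom. A gene entered with a value of 10 or more in 3 or more libraries, which 15037 of 18205 did. Tests were two-sided, and a call is an adjusted p (Benjamini-Hochberg) under 0.05. The comparisons were dTAG13 against DMSO at each stage, which share no library, successive stages in DMSO, and the change in the dTAG13 effect from one stage to the next. Fold changes of low genes are understated on this scale. The procedure was tested on simulated data for the dTAG13 comparison in DE1 only. Its noise was independent between libraries, so it does not cover the pairing by line or the differences of effect.

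Samples took their group from the treatment, stage and cell line in the labels. Libraries of the same line deviated together from their group means, with correlations of 0.0703 to 0.381, highest for the own line in 12 of 12 cases, so the line pairs the samples. Fits with and without the line as a block were both made. The one without it is reported, so its p-values leave this pairing out. For dTAG13, it called 13 genes in EPI, 33 in PS, 1167 in DE1 and 2551 in DE2. With the block 86, 362, 2376 and 4139 were called, so a gene not called without it may be called with it. In the dTAG13 comparisons and differences of effect the block was the line within each stage, which leaves fewer residual degrees of freedom. In the vehicle steps it was the line. Coordinates and exon lengths are from GENCODE M21 on GRCm38, matched by ID for 18120 genes. Names changed into dates were restored for 23 genes. Named pathway genes were the 4 with the lowest p among those called in a comparison, plus a set of core genes in all comparisons. The 10 genes, the pathway and marker lists and the tests were chosen with earlier results of these data known. The other settings tried were a pseudocount of 4, no filter on low values, equal library totals, quantile normalisation, the line block, only the compared groups, and leaving out each line. Python 3.11.15 with pandas 2.3.3 made the tables, and matplotlib 3.10.9 drew the figures. Some genes of the marker lists and pattern comparison are not reported here.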

Additional observations from a re-analysis of the deposited data

Results flagged for a closer look

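The results below are changes in the dTAG13 effect from one stage to the next that passed limma's test of the difference itself, on the log2 scale, with all 3 lines in the same direction. No explanation was weighed. For Jag1 the effect went from 0.30 in EPI to -1.30 in PS, a difference of -1.60 (adjusted p = 0.0371), then to -0.12 in DE1, a difference of 1.18 (adjusted p = 0.0114), and to 1.32 in DE2, a difference of 1.44 (adjusted p = 0.00158). For Notch1 it went from -0.70 in PS to 0.91 in DE1, a difference of 1.61 (adjusted p = 0.00866), and to -0.40 in DE2, a difference of -1.31 (adjusted p = 0.0206). For Hey1 it went from -0.07 in PS to 1.81 in DE1, a difference of 1.88 (adjusted p = 0.0342). For Hey2 it went from -0.95 in DE1 to -4.83 in DE2, a difference of -3.88 (adjusted p = 0.0101), which was -2.49 without line 7H1. For Rbpj it went from 0.41 in DE1 to -0.73 in DE2, a difference of -1.14 (adjusted p = 0.000212). Every one of these but the Rbpj difference lost its call without at least 1 line.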

How the results depend on the processing

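No value changed sign under any alternative while called. Of 342 values of the 38 called changes of the 10 NOTCH genes under 9 alternatives, 299 kept their call, and 19 of the 38 lost it under none, among them Hey1 in DE1 and DE2 and Hey2, Jag1 and Notch2 in DE2. A pseudocount of 4, no filter and equal library totals lost none, quantile normalisation lost 2 and the compared groups alone lost 3. Leaving out 7H, 7H1 and 7H2 lost 7, 16 and 15, with fewer samples in each fit. With the line as a block, pairing the libraries, none was lost and 5 were gained (Dll1 in EPI, Jag2 in DE2, and 3 differences of effect); it changed no other call of the 10. Counts of the 10 became 1 in EPI with the block, 2 for the difference from EPI to PS and 5 for that from PS to DE1. With the compared groups alone they became 0 in PS, 0 for the difference from EPI to PS and 5 for that from PS to DE1, and quantile normalisation gave 0 for EPI to PS. For the wider pathway the block gave 4 calls in PS, 20 in DE1 and 29 in DE2, and the compared groups alone gave 22 in DE1; the cause was not tested. Leaving out 1 line gave 1 to 3 members in DE1, 0 to 1 in PS, and differences of 0 to 0 from EPI to PS, 0 to 2 from PS to DE1 and 0 to 2 from DE1 to DE2. It gave 4 to 7 members from EPI to PS and 3 to 5 from PS to DE1, and pathway counts of 5 to 7 in DE1, 10 to 11 in DE2 and 15 to 23 from EPI to PS. No count-based interval was given, since the values are not counts. Scaling moved the median of all genes by at most -0.097 on the log2 scale.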

Other observations

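Of the other HES and HEY genes and their relatives, 0 of 6 tested were called with dTAG13 in DE1 and in DE2 by limma without the line as a block. Of all genes, 7.76% and 17.0% were called at these stages. Among the 6, 0 and 2 had an unadjusted p under 0.05. With the block Bhlhe40 was called higher in PS and DE1 (log2 fold changes 0.91 and 0.72, adjusted p = 0.00112 and 0.000926 with the block and 0.726 and 0.545 without). Heyl, the third HEY repressor, had 68.5, 147 and 94.7 with DMSO and 16.9, 7.13 and 32.6 with dTAG13 in DE2, without overlap (log2 fold change -2.55, SE 1.14, adjusted p = 0.14, and 0.0314 in a fit of the compared groups alone). In EPI 1 library, line 7H1 with dTAG13, held 95.1 of Heyl while the other EPI libraries held at most 2.77. Dtx1, an E3 ligase that acts on NOTCH, had 317, 267 and 229 with DMSO and 734, 906 and 900.3 with dTAG13 in DE1, and was higher in DE2 too (log2 fold changes 1.65 and 1.16, adjusted p = 0.00129 and 0.0109). Bhlhe40 and Dtx1 were chosen after their values were seen.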
